A study of Mus musculus with 4 samples.

Results

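Smooth muscle and myofibroblast contractile genes were compared between DPPIV- and DPPIV+ FAPs for 10 genes chosen by symbol, Acta2, Actg2, Tagln, Myl9, Cnn1, Cnn2, Tpm1, Tpm2, Lmod1 and Myocd, out of 24421 symbols in the counts. FAPs, short for fibro-adipogenic progenitors, are connective tissue cells between the muscle fibres, and Dpp4 encodes the surface protein DPPIV by which they were split. The data were 4 bulk RNA sequencing libraries, 1 of each cell type from each of 2 wild-type mice (n = 2), called mouse 1 and mouse 2 here. Both cell types came from adult animals given a CSF1R inhibitor (PLX73086) in their chow for 3 weeks and then normal chow for 3 days, so no library shows untreated muscle. The cells were sorted as PI- CD31- CD45- Sca1+ before the split by DPPIV. The labels name the tibialis anterior and a NEBNext library kit, whereas the study's methods describe both hindlimbs and a TruSeq kit.

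In smooth muscle cells, a specialized actin and myosin with their partners make a contractile apparatus, whose genes are switched on together by serum response factor (SRF) and its partner myocardin, the product of Myocd. Fibroblasts can take up part of this program when they become myofibroblasts, in which smooth muscle actin, the product of Acta2, gathers in stress fibres. Other members are made by many cell types that move or bear load, among them the tropomyosins and calponin 2. A FAP can therefore hold RNA of several members without being a smooth muscle cell.

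The DNA element through which SRF binds its target genes is the CArG box. Its strict form is 2 C, then 6 letters that are each A or T, then 2 G. It was searched in the 250 bases upstream of the RefSeq start of each gene on GRCm38.p6, where both strands read alike. The RefSeq table held windows for 7 of the 10 members (Actg2, Tagln and Myocd had no entry). A full box stood in 2 of these 7, Myl9 and Cnn2, and in 1.47% of all 32851 windows. The upstream bases of both are shown, from 250 to 45 bases before the start, with the full box in capitals, on the plus strand at chr2:156775214-156775419 for Myl9 and chr10:79988350-79988555 for Cnn2.
Myl9: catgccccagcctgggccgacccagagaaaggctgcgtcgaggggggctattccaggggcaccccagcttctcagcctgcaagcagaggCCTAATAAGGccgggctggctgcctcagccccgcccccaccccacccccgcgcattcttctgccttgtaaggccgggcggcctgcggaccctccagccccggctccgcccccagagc
Cnn2: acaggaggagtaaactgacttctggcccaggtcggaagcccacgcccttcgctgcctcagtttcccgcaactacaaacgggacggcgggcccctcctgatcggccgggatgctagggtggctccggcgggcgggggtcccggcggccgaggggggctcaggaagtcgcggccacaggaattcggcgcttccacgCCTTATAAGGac
The box began 161 bases upstream of the start of Myl9 and 56 bases upstream of that of Cnn2. Boxes with 1 of their 10 letters off were counted apart, and 17.5% of all windows held one. Acta2 had 2 of them on the minus strand, 84 and 34 bases upstream (chr19:34255438-34255467 and chr19:34255388-34255417), and Tpm1 had 2 on the minus strand, 221 and 80 bases upstream (chr9:67049415-67049444 and chr9:67049274-67049303). They are shown in capitals with 10 bases on each side, because both genes passed the test described next.
Acta2, 84 bases upstream: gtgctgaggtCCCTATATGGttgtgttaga
Acta2, 34 bases upstream: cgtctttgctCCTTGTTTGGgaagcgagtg
Tpm1, 221 bases upstream: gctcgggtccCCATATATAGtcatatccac
Tpm1, 80 bases upstream: acaagcttttCCAAAAAAGTattggctgtc
Lmod1 also had 2, 189 and 164 bases upstream, and Myl9 had 1 besides its full box, while Cnn1 and Tpm2 held neither kind. MCAT, the motif read by TEAD factors (CATTCC on either strand), stood in the windows of Acta2, Tpm1 and Lmod1 and in 12.6% of all windows. These matches describe letters in a window. Binding was not measured, so no window is shown to be bound or unbound by SRF, with or without a full box.

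The libraries held between 18240110 and 20879405 reads counted on genes. Values are given as CPM, read counts scaled to library size after edgeR's TMM method, or as raw reads where these are few. Dpp4 itself had 89.6 CPM in mouse 1 and 39.6 in mouse 2 among DPPIV- FAPs, against 727 and 574 among DPPIV+ FAPs. Of the FAP markers, Pdgfra had 28881 to 34676 reads in DPPIV- and 21129 to 22340 reads in DPPIV+ FAPs. The libraries of mouse 1 held 153 and 166 reads of Xist against 1 and 3 in those of mouse 2, although Ddx3y of the Y chromosome had between 1100 and 1182 reads in all 4, so each mouse's own ratio is given beside the fitted values.

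Across the members, 6 were expressed above the filter for testing (2 CPM in at least 2 libraries) and 4 were not. Of the 6, Acta2, Tagln, Tpm1 and Tpm2 were lower in DPPIV+ FAPs, by between 1.26-fold and 1.61-fold, and Myl9 and Cnn2 did not pass the test. None was higher, while 15.9% of all genes were at an adjusted p under 0.05 in edgeR. At an unadjusted p under 0.05, 5 members were lower in edgeR and 4 in DESeq2, and 0 were higher in either. The shares over all genes given here are for adjusted p. Calls were made at an adjusted p of 0.05 in the quasi-likelihood test of edgeR, on a model of mouse and cell type and with Benjamini-Hochberg adjustment over 11588 genes, by which 17.2% of all genes tested were lower. DESeq2's Wald test called 2 of the 4, Tpm1 and Tpm2, and 8.59% of all genes lower. DESeq2 is the tool of the study, but it was run here in a later version and with settings the study does not state. Without mouse in the model edgeR called 3, Acta2, Tagln and Tpm2 (9.66% of all genes), and against a 1.5-fold change it called 0 of the members, also at an unadjusted p under 0.05, and 5.66% of all genes. Each of the 6 was above the filter in all 4 libraries, so none was admitted by its level in only 1 cell type. Both DPPIV+ libraries lay below both DPPIV- libraries for 5 of the 6, all but Cnn2, as they did for 28.5% of all genes tested. The median log2 fold change was -0.44 for the 6, and 0.00 to 2 decimals for all genes tested.

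**Figure D1:**
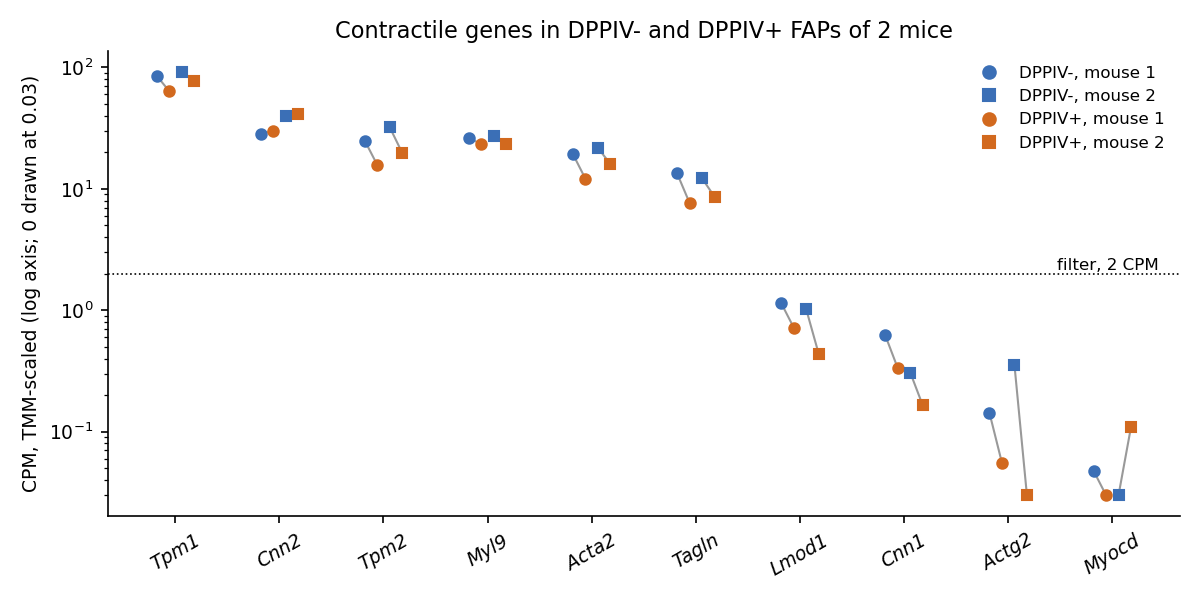
CPM of the 10 contractile genes in each library on a log axis, with DPPIV- in blue, DPPIV+ in orange, circles for mouse 1 and squares for mouse 2, and lines joining the libraries of 1 mouse (0 reads are drawn at the bottom). Tpm1 had the highest CPM and 4 genes lie under the filter of 2 CPM; the orange points are below the blue ones in both mice for Tpm1, Tpm2, Myl9, Acta2, Tagln, Lmod1, Cnn1 and Actg2.

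Acta2 (ENSMUSG00000035783.9, chromosome 19, 34241090 to 34255590, minus strand), the smooth muscle alpha-actin and the usual mark of a myofibroblast, had 404 reads in mouse 1 and 425 in mouse 2 among DPPIV- FAPs, against 218 and 292 among DPPIV+ FAPs. In CPM these were 19.3 and 21.7 against 12.1 and 16.0. Both DPPIV+ libraries were the lower ones, and the 2 cell types did not overlap. The fitted difference was 1.46-fold, a log2 fold change of -0.55 ± 0.12 (SE) at an adjusted p of 1.42e-05 in edgeR, with -0.67 in mouse 1 and -0.44 in mouse 2. The adjusted p was 0.0489 with edgeR when mouse was left out of the model, and 0.0544 with DESeq2's Wald test, which is over the threshold. Between transcripts of Acta2 and those of another gene, no alignment of at least 50 bases reached 97% identity over its whole length. A like stretch inside a longer, less alike alignment would be missed by this search. It therefore cannot show whether reads of Acta2 and of other actins are told apart.

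Within the actins, Acta2 was a small part of the RNA. Per kilobase of exon it made up 1.52% and 1.57% of 6 actin genes in the DPPIV- libraries (mouse 1, then mouse 2), and 0.907% and 1.14% in DPPIV+ FAPs. Actb and Actg1, the actins of the cytoskeleton of every cell, held 70.1% to 73.1% and 23.2% to 25.9%. Actb had a log2 fold change of 0.01 ± 0.07 (SE) and Actg1 of 0.17 ± 0.07 (SE) at an adjusted p of 0.0348 in edgeR. The share of Acta2 was thus lower in DPPIV+ FAPs of both mice, and this ratio within a library does not depend on the scaling between libraries. Actg2 (ENSMUSG00000059430.14, chromosome 6, 83512905 to 83536265), the gamma-actin of visceral smooth muscle, had 3 and 7 reads in DPPIV- FAPs and 1 and 0 in DPPIV+ FAPs. In the library with 0 reads, up to 3 reads or 0.162 CPM are allowed by counting error.

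Tagln (ENSMUSG00000032085.5, chromosome 9, 45929619 to 45936058, minus strand) encodes transgelin, or SM22, an actin-binding protein and an early mark of smooth muscle. Its reads numbered 281 and 239 in DPPIV- FAPs and 138 and 157 in DPPIV+ FAPs, which is 13.4 and 12.2 CPM against 7.65 and 8.60 CPM. The cell types did not overlap, and the DPPIV+ libraries were 1.58-fold lower, with a log2 fold change of -0.66 ± 0.15 (SE) at an adjusted p of 7.45e-05 in edgeR. The ratio was -0.81 in mouse 1 and -0.50 in mouse 2 on the log2 scale. With DESeq2 the adjusted p was 0.0752. Tagln2, a relative made in most cells, made up 95.8% to 97.3% of the transgelin reads per kilobase and had a log2 fold change of -0.19 ± 0.07 (SE) at an adjusted p of 0.0147 in edgeR. Of the exon bases of Tagln, 108 are shared with Pcsk7 and 1241 with Gm48529, both on the opposite strand. Pcsk7 had a mean of 32.3 CPM over the libraries, and Gm48529 is not a symbol of the counts. The sources used here do not say whether the counting used strand, so reads of these genes may not be told apart from those of Tagln.

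Myl9 (ENSMUSG00000067818.6, chromosome 2, 156775420 to 156781658, plus strand), the regulatory light chain of smooth muscle myosin, had 550 and 529 reads in DPPIV- FAPs and 421 and 425 in DPPIV+ FAPs. These were 26.2 and 27.0 against 23.3 and 23.3 CPM, so the replicates lay close together and the cell types did not overlap. The log2 fold change of -0.19 (standard error 0.10, -0.17 in mouse 1 and -0.21 in mouse 2) did not pass the test (adjusted p = 0.120 in edgeR), and it passed only with upper-quartile normalization (adjusted p = 0.0492). Myl12a and Myl12b, the light chains of non-muscle myosin, had log2 fold changes of 0.01 ± 0.07 (SE) and 0.30 ± 0.07 (SE) at an adjusted p of 4.33e-05 in edgeR. Per kilobase of exon, Myl9 was 15.6% and 16.3% of these 3 light chain genes in DPPIV- FAPs and 13.3% and 13.2% in DPPIV+ FAPs. By reads not divided by exon length, it was 6.4% and 6.7% against 5.4% and 5.3%.

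Tpm2 (ENSMUSG00000028464.16, chromosome 4, 43514711 to 43523765, minus strand), beta-tropomyosin, which lies along the actin filament, had the largest fitted difference among the members tested, although in mouse 1 alone those of Tagln and Acta2 were larger. It had 523 reads in mouse 1 and 630 in mouse 2 among DPPIV- FAPs, against 284 and 361 among DPPIV+ FAPs (24.9 and 32.1 against 15.7 and 19.8 CPM). Both DPPIV+ libraries lay below both DPPIV- libraries. The log2 fold change was -0.68 ± 0.10 (SE), or 1.61-fold lower, at an adjusted p of 1.30e-10 in edgeR, with -0.66 in mouse 1 and -0.70 in mouse 2, and the adjusted p was 0.00223 with DESeq2. Among all genes tested, 7.94% had a lower log2 fold change than Tpm2.

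Tpm1 (ENSMUSG00000032366.15, chromosome 9, 67022590 to 67049406, minus strand), alpha-tropomyosin, was the member with the most reads, 1796 and 1800 in DPPIV- FAPs and 1156 and 1405 in DPPIV+ FAPs. In CPM, 85.6 and 91.8 stood against 64.1 and 76.9, again with no overlap. The log2 fold change was -0.34 ± 0.07 (SE), or 1.26-fold lower, at an adjusted p of 2.40e-06 in edgeR. It was -0.42 in mouse 1 and -0.26 in mouse 2, the adjusted p was 0.0409 with DESeq2, and 0.0640 with edgeR without mouse in the model. The other tropomyosin genes, Tpm3 and Tpm4, had log2 fold changes of -0.04 and -0.03 (standard error 0.07 for each), neither past the threshold. Per kilobase of exon, Tpm4 made up between 78.0% and 80.6% of the tropomyosin reads of each library. Tpm2 held 3.95% and 4.60% of them in DPPIV- FAPs and 2.64% and 2.94% in DPPIV+ FAPs, and Tpm1 held 6.09% and 5.90% against 4.81% and 5.13%. By reads not divided by exon length, Tpm1 held 13.4% and 13.1% against 10.7% and 11.5%, with Tpm4 still the largest. Tpm1 and Tpm2 each make muscle and non-muscle forms by alternative splicing, which counts per gene do not separate.

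Cnn2 (ENSMUSG00000004665.10, chromosome 10, 79988584 to 79996062, plus strand), calponin 2, which binds actin in smooth muscle and in many other cells, was the only member tested whose value was not lower. It had 590 and 787 reads in DPPIV- FAPs and 545 and 754 in DPPIV+ FAPs. In CPM these were 28.1 and 40.1 against 30.2 and 41.3, so the mice lay further apart than the cell types. The log2 fold change was 0.07 ± 0.08 (SE) at an adjusted p of 0.597 in edgeR, with 0.10 in mouse 1 and 0.04 in mouse 2. Cnn3, the calponin with the most reads, was lower in DPPIV+ FAPs, with a log2 fold change of -0.33 ± 0.07 (SE) at an adjusted p of 3.97e-06 in edgeR. The share of Cnn2 among calponin reads per kilobase was accordingly 15.1% and 18.8% in DPPIV- and 19.3% and 23.2% in DPPIV+ FAPs.

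**Figure D2:**
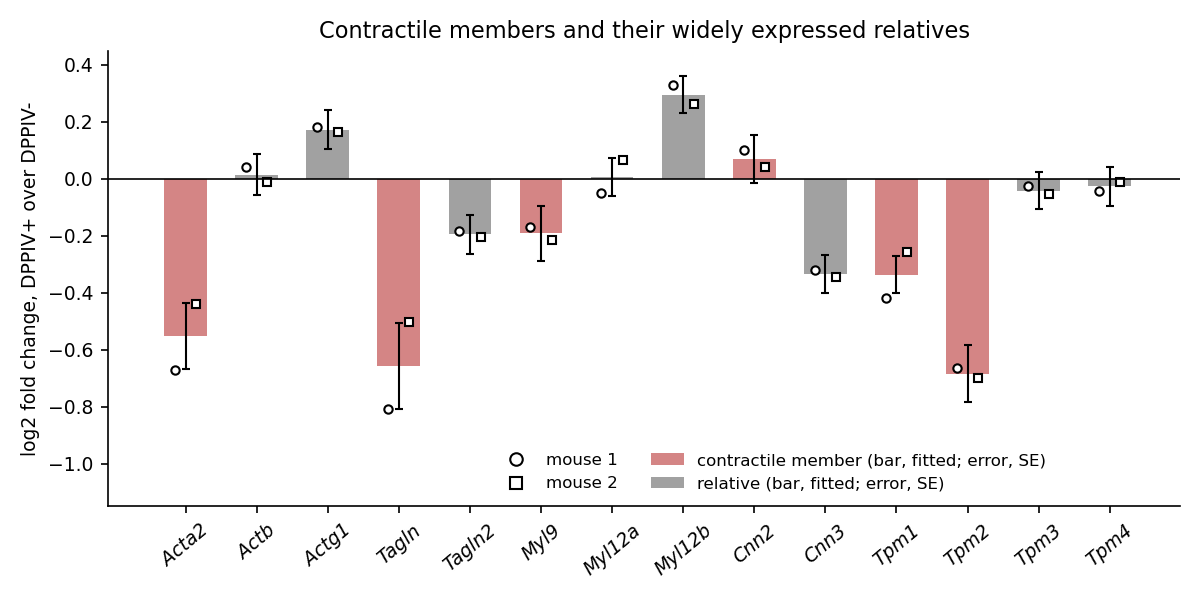
Fitted log2 fold change (DPPIV+ over DPPIV-) of the 6 contractile members tested in red and of 8 widely expressed relatives in grey, with error bars for the standard error, circles for the ratio in mouse 1 and squares for mouse 2. Acta2, Tagln and Tpm2 lie between -0.55 and -0.68, while Actb, Myl12a, Tpm3 and Tpm4 lie within 0.05 of 0.

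**Figure D3:**
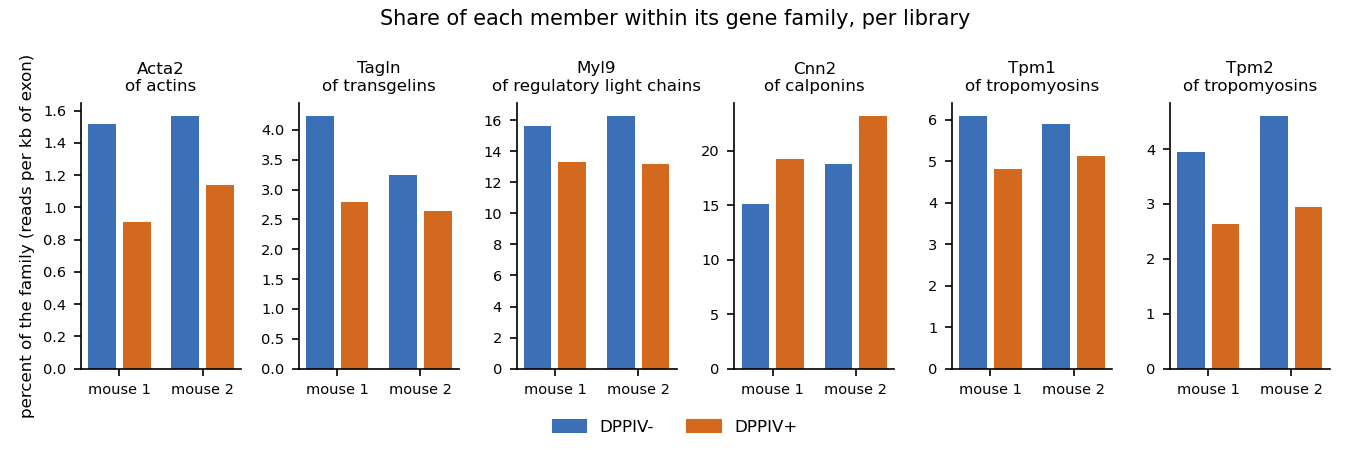
Percent that each of 6 members makes up of its gene family in each library, from reads per kilobase of exon, with DPPIV- in blue and DPPIV+ in orange. The orange bar is lower in both mice for Acta2, Tagln, Myl9, Tpm1 and Tpm2 and higher in both for Cnn2.

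The members most restricted to smooth muscle had few reads. Cnn1 (ENSMUSG00000001349.5, chromosome 9, 22099216 to 22109630), calponin 1, had 13 and 6 reads in DPPIV- FAPs and 6 and 3 in DPPIV+ FAPs. Lmod1 (ENSMUSG00000048096.7, chromosome 1, 135324807 to 135368065), leiomodin 1, which starts new actin filaments in smooth muscle, had 24 and 20 reads against 13 and 8. Myocd (ENSMUSG00000020542.18, chromosome 11, 65176561 to 65269989), the coactivator of SRF that drives the smooth muscle program, had 1 and 0 reads against 0 and 2. Together with Actg2, these genes had 41 and 33 reads in DPPIV- FAPs and 20 and 13 in DPPIV+ FAPs, which is under 2 CPM in each library. Actg2, Cnn1 and Lmod1 were lower in DPPIV+ FAPs of both mice, but when the filter was lifted none passed edgeR's quasi-likelihood test, with an adjusted p of 0.283 for Actg2, 0.607 for Cnn1, 0.294 for Lmod1 and 0.858 for Myocd.

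The order of the members depends on how exon length is taken, here all annotated exons of a gene joined, which lowers genes with many forms. In CPM alone, Tpm1 was first in DPPIV- FAPs, with 85.6 and 91.8 against 26.2 and 27.0 for Myl9. Ordered by CPM per kilobase of exon in the DPPIV- libraries, mouse 1 before mouse 2, Myl9 was first with 22.6 and 23.2. Tpm1 (13.2 and 14.2) and Cnn2 (11.4 and 16.3) followed and could not be ordered, since their values overlap, and the same held for Acta2 (8.77 and 9.87) and Tpm2 (8.57 and 11.05). Tagln came next with 6.74 and 6.13. Lmod1 followed with 0.290 and 0.258, and Actg2, Cnn1 and Myocd were at 0.229 or less. In DPPIV+ FAPs, Myl9 was again first (20.1 and 20.0), then Cnn2 (12.3 and 16.8) and Tpm1 (9.88 and 11.9), with Acta2 (5.50 and 7.28) and Tpm2 (5.41 and 6.80) overlapping and Tagln (3.85 and 4.32) below them. Actb, for comparison of level, had 422 CPM per kilobase in DPPIV- FAPs of mouse 1, above every member in both cell types. Pattern likeness to Acta2 was measured as the distance between centred log2 CPM values over the 4 libraries among 8641 genes with a mean of at least 10 CPM. The 5 nearest genes were Mvb12b, D630045J12Rik, Tcea3, Mettl1 and Jup, at distances from 0.0464 to 0.0698, and with 4 libraries this is a description of them.

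Some members also differed between the mice. Cnn2 was higher in mouse 2 than in mouse 1, with a log2 difference of 0.48 (standard error 0.08, adjusted p = 6.88e-07 for mouse in the same edgeR model), and so was Tpm2, with 0.35 (standard error 0.10, adjusted p = 0.00908 in edgeR). By this test 8.98% of all genes differed between the mice, and 4.47% were higher in mouse 2. DESeq2 gave neither call, with an adjusted p of 0.162 for Cnn2 and 0.963 for Tpm2. Acta2, Tagln, Myl9 and Tpm1 had log2 differences of 0.27, -0.01, 0.02 and 0.18 that did not pass. Markers of myofibres, whose RNA also holds tropomyosin, summed to 108.0 and 107.2 CPM in mouse 2 and to 71.6 and 76.6 CPM in mouse 1. Their part in the difference between mice was not tested.

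**Figure D4:**
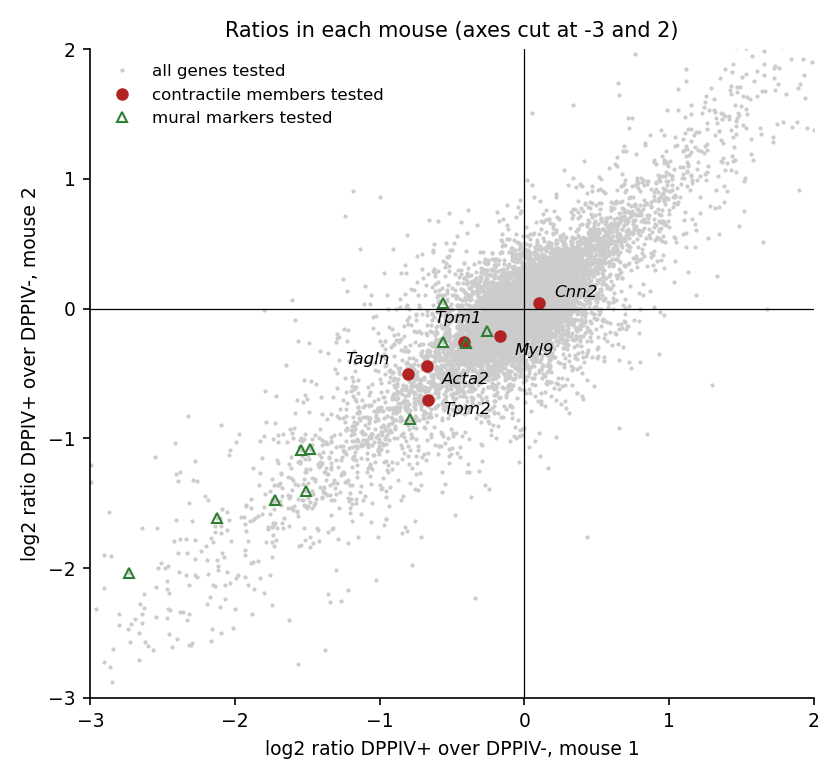
Log2 ratio of DPPIV+ over DPPIV- in mouse 1 (x axis) against mouse 2 (y axis) for all 11588 genes tested in grey, the 6 contractile members in red (axes cut at -3 and 2) and 11 mural markers as green triangles. The members other than Cnn2 lie below 0 on both axes, between -0.81 and -0.17, and most mural markers lie further from 0.

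A list of 20 other genes of the smooth muscle apparatus was written with earlier results of these data known. Of these genes, 17 were tested, 11 were lower in DPPIV+ FAPs and 0 higher, with a median log2 fold change of -0.68. By the same edgeR test 17.2% of all genes were lower and 15.9% higher. DESeq2 called 9 of the 17 lower and 0 higher, and 8.59% of all genes lower. At an unadjusted p under 0.05, 0 were higher by either tool. Those with the most reads were Smtn, encoding smoothelin of contractile smooth muscle (log2 fold change -0.55), Csrp1, a LIM protein of smooth muscle (-1.06), Synm, the intermediate filament protein synemin (-0.85), and Des, desmin (-0.22). The call of Des was lost in DESeq2 (adjusted p = 0.527) and in edgeR without the filter (0.0574) or without mouse in the model (0.135). Csrp1 had 81.3 and 89.4 against 38.1 and 43.5 CPM, so the cell types stood well apart. Chosen after their values were seen, Mylk, the kinase of the myosin light chain, had 29.7 and 30.1 against 13.0 and 16.9 CPM at an adjusted p of 6.54e-21 in edgeR, and Ppp1r14a, an inhibitor of the opposing phosphatase, had 79 and 60 reads against 5 and 11. Myh11, the heavy chain of smooth muscle myosin, did not pass. It had 228 and 143 reads in DPPIV- FAPs and 133 and 137 in DPPIV+ FAPs, so that mouse 1 gave a ratio of -0.56 and mouse 2 of 0.04 (log2).

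Among 12 widely expressed relatives, all tested, 3 were higher and 3 lower in edgeR, with a median of 0.01, and DESeq2 called 2 higher and 2 lower. Over all 11588 genes tested, edgeR called 15.9% higher and 17.2% lower, and DESeq2 called 923 and 995 genes. Actg1, Myl12b and Myh10 were the higher ones, and Tagln2, Myh9 and Cnn3 the lower. Actg1 (adjusted p = 0.228) and Tagln2 (adjusted p = 0.171) did not pass in DESeq2. The heavy chains of non-muscle myosin moved apart, Myh9 with a log2 fold change of -0.56 and Myh10 with 0.67 (SE 0.07 for each, adjusted p = 1.01e-15 and 4.27e-22 in edgeR). Of 14 genes of actin adhesion and crosslinking, all tested, 2 were higher and 3 lower, while 33.0% of all genes tested were called in either direction. Zyx, the focal adhesion protein zyxin, rose from 180.0 and 166 to 427 and 398 CPM (log2 fold change 1.25), and Filip1l rose with 0.38. Actn1, the crosslinker alpha-actinin 1, and Palld, palladin of stress fibres, fell by 1.51 and 1.05 on the log2 scale. Fhl2, a LIM protein named after its values were seen, was the other lower gene, with a log2 fold change of -1.91.

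Of 15 regulators of the SRF and myocardin program, 13 were tested, 6 were higher and 2 lower, with a median log2 fold change of 0.12. Over all genes tested, edgeR called 15.9% higher and 17.2% lower. DESeq2 called 4 higher and 1 lower. The lower ones in edgeR were Gata6 (log2 fold change -1.23) and Mef2c (-0.38), both named after their values were seen. Only Gata6 passed in DESeq2 (adjusted p = 0.0162, against 0.311 for Mef2c). Klf4, a factor that represses smooth muscle genes, had 559 and 707 against 1088 and 1045 CPM (0.76 ± 0.07 on the log2 scale, adjusted p = 1.37e-25 in edgeR). Rock2, a kinase that raises actin tension, rose by a log2 fold change of 0.76, Prrx1, a mesenchymal transcription factor, by 0.37, and Rhoa, the GTPase above Rock2, by 0.23 with an adjusted p of 0.0579 in DESeq2. Srf itself had 43.8 and 53.3 against 45.1 and 56.0 CPM, and Mkl1, the myocardin relative that answers to free actin, had a log2 fold change of 0.12. Both were named after their values were seen, and neither passed the threshold.

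Markers of myofibroblasts and fibroblast activation split. Of 14 tested, 9 were lower and 2 higher in DPPIV+ FAPs, with a median of -0.63, and DESeq2 called 9 lower and 1 higher. The shares over all genes tested were 17.2% lower and 15.9% higher in edgeR, and 8.59% lower in DESeq2. Fn1, fibronectin, rose with a log2 fold change of 1.33, and Fap, fibroblast activation protein, with 0.22 (adjusted p = 0.00381 with edgeR's quasi-likelihood test and 0.127 with DESeq2). Postn, the matrix protein periostin, fell by 0.83 and Ctgf by 0.58 on the log2 scale. Lrrc15 and Cdh11, chosen after their values were seen, had log2 fold changes of -2.60 and -2.86.

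**Figure D5:**
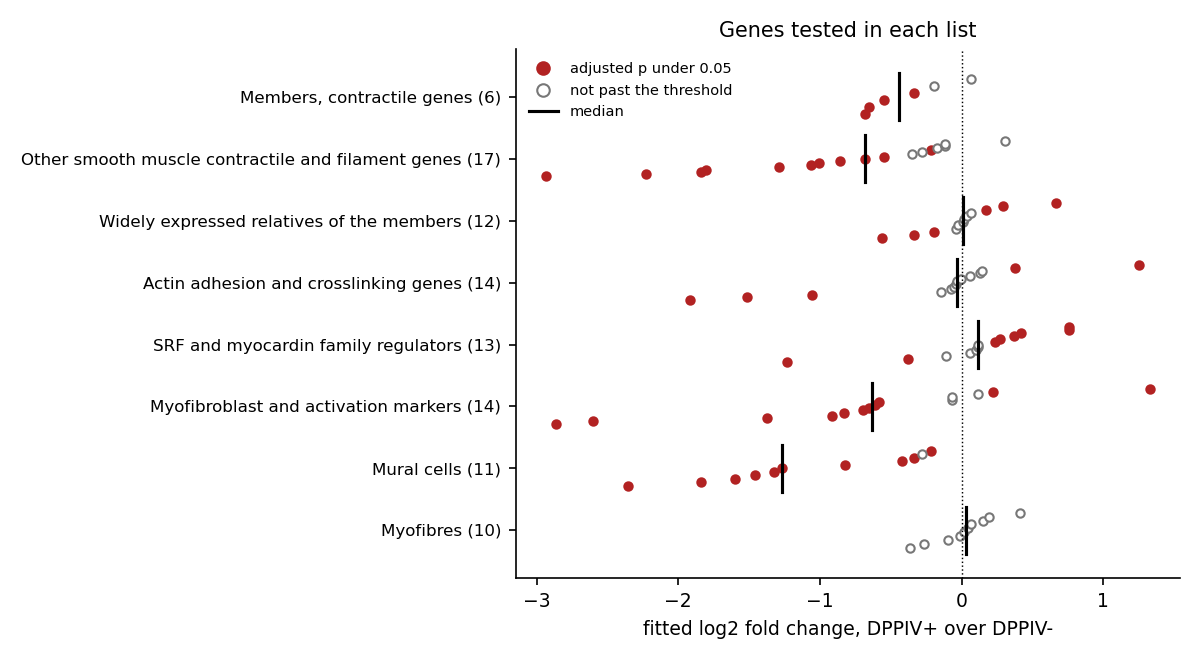
Fitted log2 fold change of each gene tested in 8 lists, with filled red points past the threshold, open grey points not past it, a black bar for the median of the list and the number tested in brackets. The median is -0.44 for the contractile members, -0.68 for other smooth muscle genes, 0.01 for widely expressed relatives and -1.27 for mural markers.

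Markers of mural cells, the smooth muscle cells and pericytes of vessels, moved with the contractile genes. They include Myh11 and Des of the smooth muscle list above. Of 12 markers, 11 were tested, 10 were lower in DPPIV+ FAPs and 0 higher, with a median of -1.27. The share of all genes tested that were lower was 17.2% in edgeR and 8.59% in DESeq2. DESeq2 called 7 lower and 0 higher, and at an unadjusted p under 0.05 none was higher with either tool. Their summed level was 1293 to 1319 CPM in DPPIV- and 660 to 756 CPM in DPPIV+ FAPs, most of it from Steap4 and Pdgfrb, and no marker was at 0 in all libraries. Steap4 had a log2 fold change of -1.46, Pdgfrb of -0.33 and Cspg4 of -1.27. Not among the markers with the most reads, Rgs5 had 288 and 185 reads against 168 and 144, and Higd1b had 4 and 4 reads against 0 and 1. The call of Rgs5 (log2 fold change -0.42) was lost in DESeq2 (adjusted p = 0.439). Bulk libraries do not show which cells held the RNA of these markers, and fewer mural cells and less RNA per cell cannot be told apart in them. The part of mural RNA in the lower contractile genes was not tested.

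No myofibre marker passed the test between the cell types, with 0 of 10 tested called by edgeR or DESeq2 and 0 at an unadjusted p under 0.05 with either. For this and the other marker lists, the shares over all genes tested were 15.9% higher and 17.2% lower in edgeR. DESeq2 called 923 genes higher and 995 lower of 11588. Acta1, the actin of skeletal muscle, had 391 and 577 reads in DPPIV- FAPs and 377 and 516 in DPPIV+ FAPs. Tenocyte markers were higher in DPPIV+ FAPs for 6 of 7 and lower for 1 in edgeR (6 and 0 in DESeq2), and summed to 1822 to 2437 CPM in DPPIV- and 2024 to 4042 CPM in DPPIV+ FAPs. Thbs4, the marker with the most reads, was the lower one (log2 fold change -0.20, with -0.47 in mouse 1 and 0.08 in mouse 2, and an adjusted p of 0.851 in DESeq2), and Fmod was higher (2.26). The gate removes endothelial cells by CD31 and blood cells by CD45. With edgeR, endothelial markers were lower for 4 and higher for 1 of 6 tested and macrophage markers lower for 4 of 7, whereas DESeq2 called 1 lower and 1 higher of the endothelial markers and 0 of the macrophage markers (1 lower at an unadjusted p under 0.05). Glial markers were lower for 1 and higher for 1 of 4 in edgeR and lower for 1 and higher for 0 in DESeq2, and satellite cell markers were lower for 1 of 2 with either. FAP markers themselves were higher for 4 and lower for 5 of 9, and the higher ones include Dpp4, by whose product the cells were split. The summed levels of endothelial markers were 196 to 264 CPM in DPPIV- and 464 to 513 CPM in DPPIV+ FAPs, carried by Tek, and those of macrophage markers 186 to 316 and 177 to 197 CPM.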

How the data were processed

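DPPIV- and DPPIV+ FAPs of 2 mice were profiled as 4 bulk RNA libraries. Per the labels and methods, the authors used bcl2fastq2 2.20 for demultiplexing, STAR for alignment (mm10) and RnaReadCounter for counting, and deposited raw counts for 24421 symbols, without normalization. 7548 symbols were at 0 in all libraries. The annotation release and the strand setting are not given in the sources used here.

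From these counts, genes reaching 2 CPM in 2 or more libraries were tested in R 4.3.3 with edgeR 4.0.16 (TMM, quasi-likelihood F test, two-sided, mouse and cell type in the model, Benjamini-Hochberg). Mouse was a block, as in the study's own analysis, and the labels tie 1 library of each cell type to each animal. The differences between mice in the 2 cell types had a correlation of 0.415 across genes. Each gene keeps 1 residual degree of freedom. The prior degrees of freedom were infinite, so the spread is that of genes of like abundance. The standard error is the log2 fold change over the root of F. Per-mouse ratios used a prior count of 0.125. DESeq2 1.42.0 was an alternative, with its independent filtering and its Cook's distance cut-off for outliers turned off. The study used an older version and states neither setting. The fits were first run on simulated counts drawn with the spread of the same fit and no difference between mice. That run therefore cannot show their error rates in these data.

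Exon lengths and positions were from GENCODE release M21 (GRCm38), similar transcripts were searched with BLAST 2.17.0, and upstream sequences were from RefSeq on GRCm38.p6. The reads carry no molecular identifiers, so the limit for a count of 0 (3 counts, 0.144 to 0.164 CPM) covers counting error only. Named genes are the members, then the called genes with the most reads in each list (up to 4), markers with the most reads, Dpp4 and the genes nearest to Acta2. Some named genes fall outside this rule, among them Myh11, Rgs5, Higd1b and those marked as chosen or named after their values were seen. The members and lists were chosen with earlier results of these data known.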

Additional observations from a re-analysis of the deposited data

How the results depend on the processing

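The 6 members tested kept their direction in all 11 alternatives, and their median log2 fold change ran from -0.49 to -0.43 with both mice, and was -0.35 without mouse 1 and -0.54 without mouse 2, as values with no test. With 1 mouse left no residual degrees of freedom remain, so no count of calls was made there. The member calls depended on the tool and the size tested. DESeq2 called 2 members lower in place of 4, and a test against a 1.5-fold change called 0 (0 also at an unadjusted p under 0.05, edgeR). DESeq2 called 923 higher and 995 lower genes in all against 1837 and 1989. Without the block for mouse, edgeR called 1001 higher and 1119 lower genes, and Tpm1 no longer passed, and the 1.5-fold test called 436 and 656. Among the lists, the regulators had 5 calls with DESeq2, 5 without the block and 3 in the 1.5-fold test, in place of 8. In that test the relatives had 0 in place of 6 (1 at an unadjusted p under 0.05) and the myofibroblast markers 6 in place of 11. Myh11 turned to 0.040 without mouse 1 and was -0.56 without mouse 2. With robust moderation, Dpp4 had an adjusted p of 0.178 in edgeR. The block changed no other member's call. Members under the filter had at most 24 reads in a library.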
